A study of Mus musculus with 6 samples.

Results

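Cadherins, contactins and the adhesion proteins of synapses hold neighbouring cells, axons and synaptic partners together. The genes described here were chosen by symbol. They comprise the numbered cadherins (Cdh) except Cdh5, contactins 1 to 6 (Cntn), the contactin-associated Caspr proteins (Cntnap), neuroligins 1 to 3 (Nlgn) and the leucine-rich repeat transmembrane neuronal proteins 1 to 4 (Lrrtm). The rule found 42 protein-coding genes among the 48709 gene IDs of the count files, which are 22 cadherins, 6 contactins, 7 Caspr genes, 3 neuroligins and 4 Lrrtm genes. Cdh5, the cadherin of the endothelium, is left out by the rule. RNA came from the neocortex of C57BL/6 mouse embryos at E15.5, when cortical neurons are being born. There were 3 wild-type libraries (WT) and 3 from mice heterozygous for a Rest allele without exon 4, Rest(+/deltaExon4), called Rest_het here. The titles of these 3 samples say KO while their genotype label is heterozygous, and the genotype label was followed. The Rest protein keeps neuronal genes off in other cells, and the series concerns the alternative splicing that regulates it. The labels name separate mice and do not say whether these shared a litter.

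Classical cadherins bind cadherins on the next cell in the presence of calcium and are tied to actin inside the cell by catenins. Type I members such as N-cadherin are spread widely, while type II members mark subsets of neurons and cortical areas. Contactins are membrane-anchored immunoglobulin proteins of axons and often pair with Caspr proteins. Neuroligins and Lrrtm proteins sit on the receiving side of a synapse, where both bind neurexins of the axon terminal.

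The libraries held 17835117 to 20753653 reads in genes, and the 42 members took 0.187 to 0.228% of them. The level of Rest, in counts scaled to library size (CPM), was 20.6 ± 0.778 in WT against 18.1 ± 1.23 in Rest_het (SD, n = 3). Without each library in turn, the log2 fold change of Rest ran from -0.22 to -0.14. The unadjusted edgeR p in these fits was 0.10 to 0.29, and the adjusted p was at least 0.49. The total of Rest covers all exons and does not check the deleted one. All 10 genes of a neocortical list, among them Emx1 and Tbr1, passed the filter on low counts, with summed levels of 1732 to 2027 CPM in WT and 1582 to 1733 CPM in Rest_het. Of the 10, 8 had log2 fold changes below 0 and 0 were called by edgeR. Before adjustment, Eomes of intermediate progenitors was lower in Rest_het (-0.31, SE 0.12) and Emx1 higher (0.50, SE 0.19), both without overlap. These 2 are 20% of the list, where 19.3% of all tested genes were without overlap and 11.7% had an unadjusted edgeR p under 0.05. Reads of a LacZ sequence occurred in WT libraries alone and reads of a CRE-ERT2 sequence in Rest_het libraries alone. The labels name no such sequence, and where these reads came from was not tested.

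No member was called between the genotypes. Of the 42, 33 passed the filter on low counts and were tested, and 0 of them reached an edgeR adjusted p under 0.05, where 0.123% of all 15385 tested genes did (19 genes). By DESeq2, 0 members were called too, beside 0.888% of all genes. Before adjustment, 7 members, or 21.2%, had an edgeR p under 0.05, against 11.7% of all tested genes. In 5 of these, or 15.2% of the tested members, the level was lower in Rest_het, where the share over all genes was 4.72%. They are the neuroligin Nlgn1, the Caspr genes Cntnap5b and Cntnap5c, and the cadherins Cdh7 and Cdh13. The other 2, the contactin Cntn4 and the cadherin Cdh4, were higher in Rest_het, or 6.06% against 6.98% over all genes. Cntn4 passed the filter through its Rest_het libraries alone, so its place in these counts follows in part from the filter. The 3 values of one group lay wholly above those of the other in 6 members, or 18.2%, close to the 19.3% of all tested genes. These were 5 lower in Rest_het (8.94% of all genes) and 1 higher (10.4% of all genes). The log2 fold change was below 0 in 17 of 33 members, beside 49.1% of all tested genes. The members' median was -0.01, against 0.0054 over all genes. In a bulk sample, fewer cells of a type and less RNA per cell cannot be told apart.

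**Figure D1:**
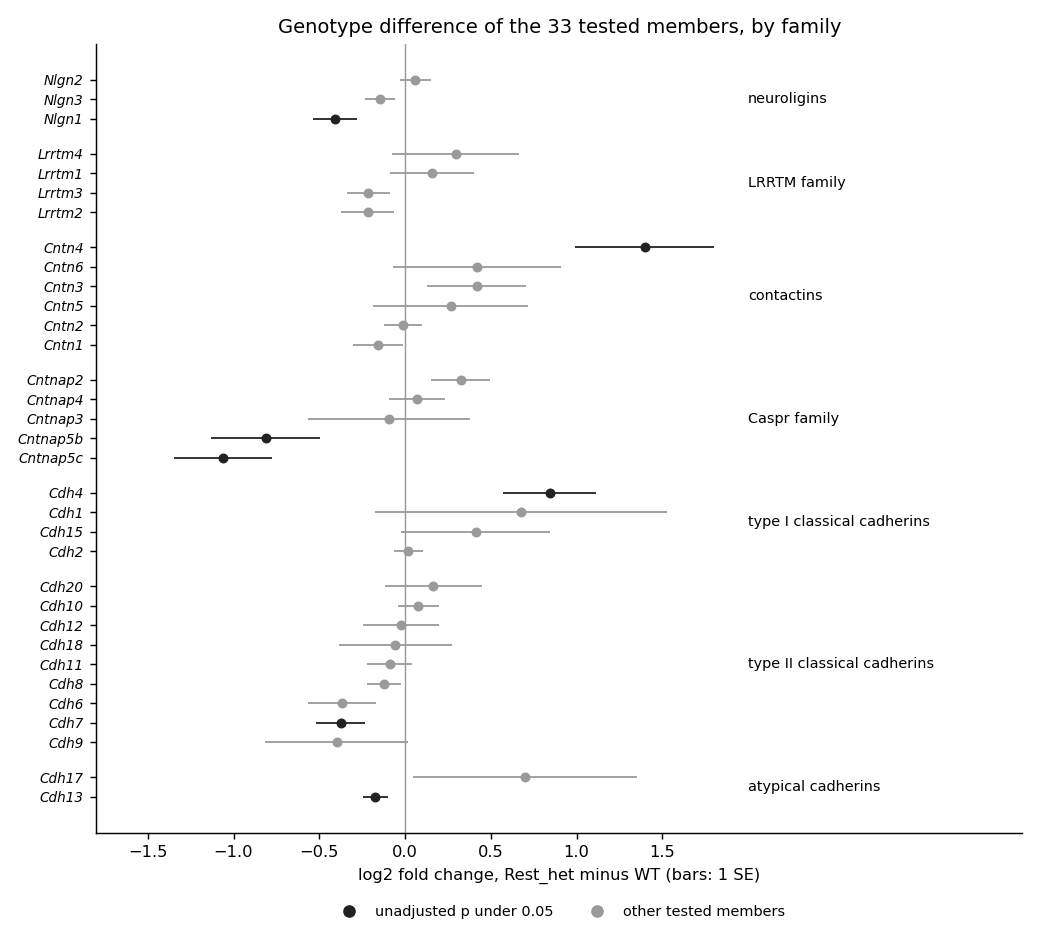
Log2 fold change (Rest_het minus WT, horizontal axis) with 1 SE for the 33 tested members, grouped by family. Black points mark the 7 members with an unadjusted edgeR p under 0.05, from Cntnap5c at -1.06 to Cntn4 at 1.40, and 0 members passed after adjustment over all genes.

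Levels of different genes were compared per kilobase of annotated exon (RPKM), as a mean over the 6 libraries with the lowest and highest library. The 3 highest means belonged to synaptic members. Nlgn3 measured 39.7 RPKM (35.4 to 44.3), Nlgn1 35.1 RPKM (25.6 to 44.6) and Lrrtm4 31.9 RPKM (18.6 to 47.0), and these 3 ranges overlapped. N-cadherin, Cdh2, followed with 22.5 RPKM (20.5 to 23.5), wholly inside the range of Lrrtm4, so the order of these 2 is not settled. Cntn2, a contactin of growing axons also called TAG-1, measured 20.2 RPKM (17.3 to 22.4). Every library of Cntn2 lay above every library of Cdh13, the next in order, at 13.5 RPKM. Below it came Lrrtm1 at 12.9 RPKM, Cdh4 at 12.5 RPKM, Cntn1 at 8.10 RPKM and Cntnap2 at 6.24 RPKM, and from Cdh13 to Cntnap2 each overlapped with the one before. Further breaks of that kind lay under Cntnap2, under Lrrtm2 at 2.99 RPKM and under Cdh10 at 1.68 RPKM. From Cntnap4 at 1.17 RPKM downward each member overlapped with the next. The type II cadherins were led by Cdh8 at 4.18 RPKM and Cdh11 at 4.15 RPKM. The length used counts every annotated exon, so a gene with long rarely used exons is understated. Nlgn3 shares 41.2% of its exon bases with the transcript Gm21986 on the same strand, and reads in shared bases count for neither gene.

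**Figure D2:**
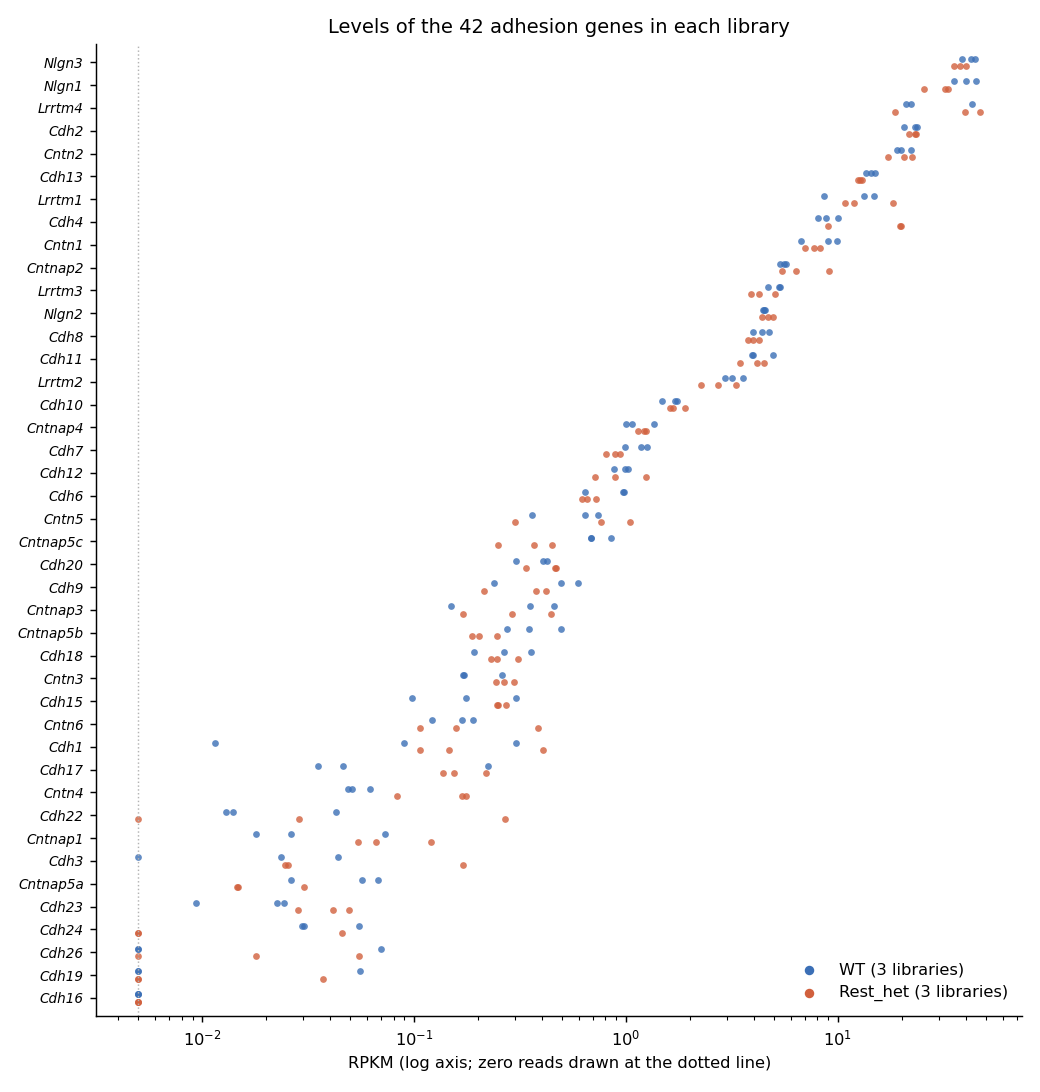
Level of each of the 42 members in each library in RPKM on a log axis, ordered by the mean over 6 libraries, with WT in blue and Rest_het in orange and zero reads drawn at the dotted line. Levels run from 39.7 RPKM for Nlgn3 to 0 reads for Cdh16, and the 2 groups overlap for most members.

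Neuroligin 1, Nlgn1 (ENSMUSG00000063887), which is found mainly at excitatory synapses, lies on chromosome 3 from 25426215 to 26332460 on the minus strand of GRCm38. It measured 599, 541 and 472 CPM in WT replicates 1 to 3 and 442, 343 and 430 CPM in Rest_het replicates 1 to 3. The lowest WT library stood above the highest Rest_het library. Means were 538 ± 63.5 and 405 ± 54.2 CPM (SD, n = 3 each), a difference of -0.41 on the log2 scale (SE 0.13, edgeR adjusted p 0.36). The fold of Rest_het over WT was 0.754, with a 95% normal interval from 0.635 to 0.895. The unadjusted p stayed under 0.05 without each library in turn (at most 0.039), with log2 fold changes from -0.49 to -0.30. Nlgn1 shares 9.16% of its exon bases with the antisense gene A830092H15Rik.

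Nlgn3, an X-linked neuroligin, measured 411, 394 and 356 CPM in WT and 350, 372 and 328 CPM in Rest_het, and the groups overlapped. Its log2 fold change was -0.14 with SE 0.09. Nlgn2, the neuroligin of inhibitory synapses, was even across libraries, at 26.0, 26.3 and 25.6 CPM in WT against 25.5, 28.7 and 27.1 CPM. Its fold of 1.04 had an interval from 0.925 to 1.18. Summed over the 3 neuroligins, WT libraries held 854 to 1036 CPM and Rest_het libraries 743 to 817 CPM, and these ranges did not overlap. Nlgn1 made up most of that difference, with Nlgn3 second. The summed neocortical list was also lower in 2 of the 3 Rest_het libraries than in any WT library, and its part in the neuroligin values was not tested.

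The Rest protein binds a long element, RE1, made of a left and a right part with a short gap. RefSeq promoters (GRCm38.p6, 250 bases before to 50 after a start) matched 27 members with 36 starts, and they were searched on both strands. The left part TTCAGCACC stood in 3 of the 36, in Nlgn1, Cntnap5b and Cdh9, and in 0.371% of all 32851 promoters. The right part GGACAG stood in 9 of the 36 member promoters and in 22.2% of all. Both parts in this order with 2 bases between them occurred in 0 member promoters and in 4 of all. The stretches around the left part are shown because 2 of the 3 belong to members with an unadjusted p under 0.05. Each is printed on the strand that reads the left part, in capitals. In the Cntnap5b stretch the right part, also in capitals, follows after a gap of 8 bases.
Nlgn1, chr3:26154086-26154184, minus strand: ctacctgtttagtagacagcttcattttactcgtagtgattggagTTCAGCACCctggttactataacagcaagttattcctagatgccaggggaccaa
Cntnap5b, chr1:99772350-99772425, minus strand: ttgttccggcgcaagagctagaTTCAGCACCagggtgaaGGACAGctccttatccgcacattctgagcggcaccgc
Cdh9, chr15:16728848-16728939, minus strand: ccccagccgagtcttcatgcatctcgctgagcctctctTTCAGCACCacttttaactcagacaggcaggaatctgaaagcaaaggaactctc
The Nlgn1 match lies before the more downstream of its 2 listed starts. Such matches describe letters in these windows and do not show binding. Cdh9 measured 2.10, 0.844 and 1.75 CPM in WT and 0.757, 1.33 and 1.49 CPM in Rest_het, with overlapping groups and a log2 fold change of -0.40 with SE 0.42.

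Lrrtm proteins organise excitatory synapses. Lrrtm4 (chromosome 6 from 80018877 to 80810143, plus strand), the most abundant of them, split the libraries across genotype. It measured 263, 135 and 129 CPM in WT and 114, 244 and 289 CPM in Rest_het. WT replicate 1 stood with Rest_het replicates 2 and 3, and the other 3 libraries stood together at less than 136 CPM. The highest library held 2.53 times the lowest. The log2 fold change was 0.30 with SE 0.37, and it was 0.70 without WT replicate 1 and 0.03 without Rest_het replicate 3. Lrrtm1 had the other order, with its lowest value of 26.0 CPM in WT replicate 1 and its highest of 55.1 CPM in Rest_het replicate 1. The remaining libraries of Lrrtm1 measured 44.9 and 40.3 CPM in WT and 36.2 and 32.8 CPM in Rest_het. Lrrtm3 measured 19.9 to 22.6 CPM in WT and 16.5 to 21.4 CPM in Rest_het, with a log2 fold change of -0.21 (SE 0.12). Lrrtm2 measured 17.7 to 21.5 CPM in WT and 13.6 to 19.9 CPM in Rest_het, with a log2 fold change of -0.22 (SE 0.15).

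Of the 4, 3 lie on the opposite strand within genes of alpha-catenins, which link cadherins to actin: Lrrtm1 within Ctnna2, Lrrtm2 within Ctnna1 and Lrrtm3 within Ctnna3. The libraries do not mark strand, so reads of host introns over an Lrrtm exon would count as Lrrtm. The hosts had log2 fold changes of 0.02 for Ctnna2, -0.05 for Ctnna1 and -0.06 for Ctnna3. Only Lrrtm2 shares exon bases with its host, 1.58% of its length. Lrrtm4 lies in no such host but shares 25.1% of its exon bases with the antisense gene Gm4409, which had 4 to 14 reads a library.

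**Figure D3:**
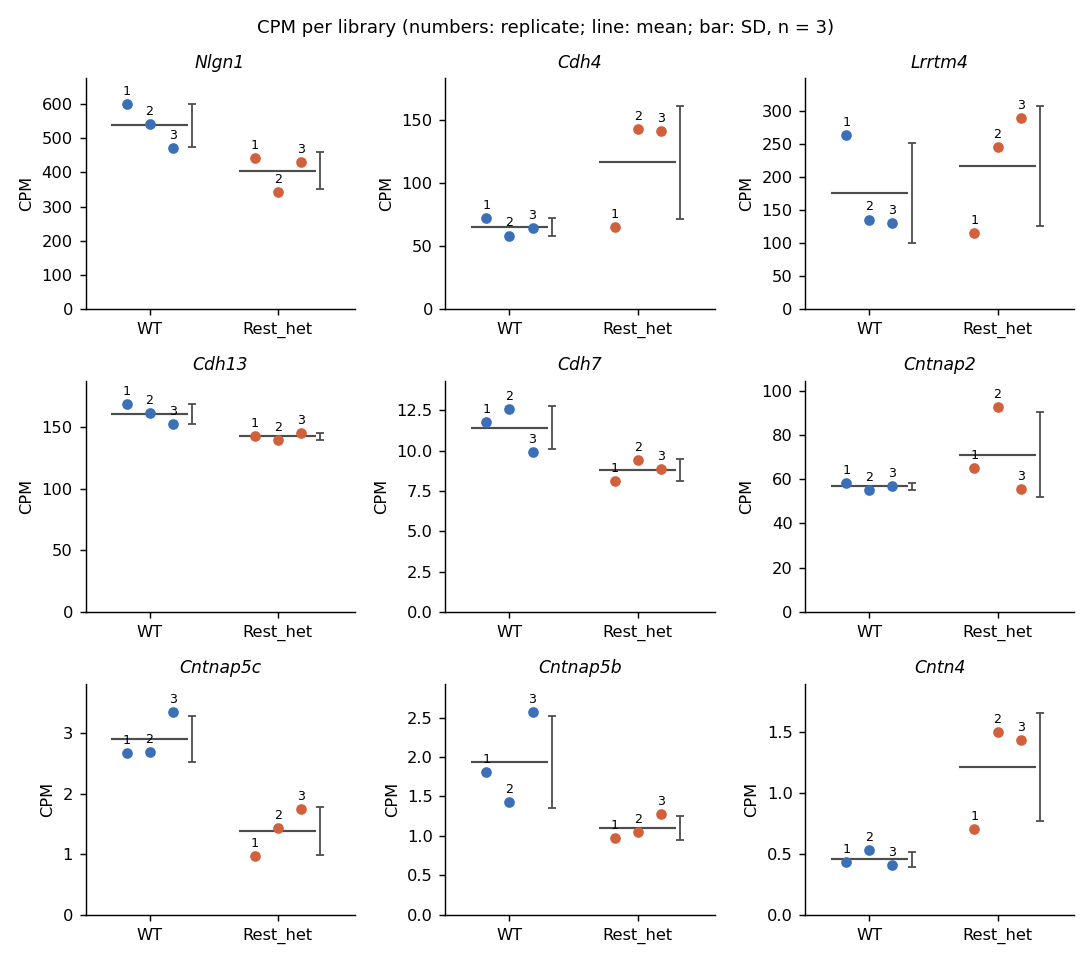
CPM in each library for 9 members, with the replicate number beside each point, a line at the group mean and a bar of 1 SD (n = 3). Nlgn1, Cdh13, Cdh7, Cntnap5c and Cntnap5b lie lower in all 3 Rest_het libraries and Cntn4 higher, while Rest_het replicate 1 stands with WT for Cdh4, and Lrrtm4 splits within both groups.

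Among the contactins, the groups of the abundant members overlapped. Cntn2 measured 177, 205 and 184 CPM in WT and 208, 161 and 191 CPM in Rest_het, a fold of 0.991 with an interval from 0.853 to 1.15. Cntn1, a contactin of axons and oligodendrocyte precursors, measured 93.7, 63.3 and 84.9 CPM in WT and 73.1, 77.7 and 65.9 CPM in Rest_het, with overlapping groups and a fold of 0.895. Cntn4 (chromosome 6 from 105677660 to 106699310, plus strand), a contactin of developing axon projections, had the lowest level per length of the tested members. It had 9, 10 and 8 reads in WT and 13, 27 and 27 reads in Rest_het, or 0.430, 0.527 and 0.412 CPM against 0.703, 1.496 and 1.43 CPM. The groups did not overlap. On the log2 scale the difference was 1.40 (SE 0.40, edgeR adjusted p 0.35).

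Cntn3, Cntn6 and Cntn4 lie one after another on chromosome 6, between 102162655 and 106699310. All 3 had positive values. Cntn3 measured 1.15 to 1.75 CPM in WT and 1.65 to 1.99 CPM in Rest_het (log2 fold change 0.42, SE 0.29). Cntn6 measured 0.791 to 1.24 CPM in WT and 1.03, 2.49 and 0.691 CPM in Rest_het (0.42, SE 0.49), so its mean rests on Rest_het replicate 2, and the value without that library was -0.28. The 3 other members on chromosome 6, Cntnap2, Lrrtm1 and Lrrtm4, were also above 0, where 49.1% of all tested genes lay below 0. Without single libraries their lowest values were 0.09 for Cntnap2, -0.10 for Lrrtm1 and 0.03 for Lrrtm4. Cntn4, which passed the filter through its Rest_het libraries alone, was the single one of the 6 at an unadjusted edgeR p under 0.05. Cntn5 on chromosome 9 ranged from 1.63 to 3.35 CPM in WT and from 1.35 to 4.73 CPM in Rest_het.

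In the Caspr family, 3 of 5 tested genes lay below 0. Of these, the close paralogs Cntnap5b and Cntnap5c reached an unadjusted p under 0.05, and Cntnap3 was near 0 at -0.09. Cntnap5c (chromosome 17 from 57769570 to 58410355, plus strand) measured 2.68, 2.69 and 3.35 CPM in WT and 0.973, 1.44 and 1.75 CPM in Rest_het. Every WT library stood above every Rest_het library. Its log2 fold change was -1.06 with SE 0.29 (edgeR adjusted p 0.33, the smallest of all members), or 2.08-fold higher in WT. Leaving out single libraries gave -1.26 to -0.86, with unadjusted p of at most 0.025. Cntnap5b (chromosome 1 from 99772765 to 100485942, plus strand) measured 1.82, 1.42 and 2.57 CPM in WT and 0.973, 1.05 and 1.27 CPM in Rest_het, also without overlap. Its log2 fold change was -0.81 with SE 0.32 (edgeR adjusted p 0.40), and -0.56 without WT replicate 3, where the unadjusted p was 0.15. Cntnap5a, too rare for the test, had 6, 14 and 12 reads in WT and 3, 6 and 3 in Rest_het, so the groups met at 6 reads. Of all 31-base words in Cntnap5c transcripts, 6.74% also occur in Cntnap5b and 4.31% in Cntnap5a, and reads that fit several places were not counted.

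Cntnap2, known from autism and a target of FOXP2, was the abundant Caspr gene. It measured 58.3, 54.9 and 57.1 CPM in WT and 65.0, 92.6 and 55.5 CPM in Rest_het. Rest_het replicate 2 stood apart, and the log2 fold change of 0.32 (SE 0.17) was 0.09 without it. Cntnap4, which acts at synapses of interneurons, measured 6.31 to 8.54 CPM in WT and 7.12 to 7.81 CPM in Rest_het. Cntnap3 ranged from 0.949 to 2.94 CPM in WT and from 1.08 to 2.83 CPM in Rest_het. Cntnap1, Caspr itself, which flanks the nodes of myelinated axons, had 2 to 9 reads in WT and 6 to 13 reads in Rest_het and was not tested.

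R-cadherin, Cdh4 (ENSMUSG00000000305, chromosome 2 from 179442431 to 179899373, plus strand), gave the largest difference among abundant members. It measured 72.5, 58.5 and 64.1 CPM in WT and 65.0, 143 and 142 CPM in Rest_het. Rest_het replicate 1 lay inside the WT range, while replicates 2 and 3 were about alike and far above it. Means were 65.0 ± 7.08 and 117 ± 44.8 CPM (SD, n = 3 each), a difference of 0.84 on the log2 scale (SE 0.27, edgeR adjusted p 0.36). By DESeq2 the adjusted p was 0.072. Without Rest_het replicate 1 it was 1.13 (edgeR adjusted p 0.033), so Cdh4 was called in that set of 5 libraries. Without Rest_het replicate 2 or 3 the value was 0.67 and 0.68, with unadjusted p of 0.053 each. Over the edgeR alternatives the adjusted p of Cdh4 ran from 0.033 to 0.62.

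Cdh2, the main cadherin of neural progenitors, measured 165, 189 and 187 CPM in WT and 189, 174 and 186 CPM in Rest_het. Its fold of 1.01 had an interval from 0.903 to 1.14. Cdh15, M-cadherin of muscle, had 6 to 19 reads in WT and 15 or 16 in Rest_het. E-cadherin, Cdh1, and its neighbour P-cadherin, Cdh3, both of epithelia, had few reads and followed particular libraries. Cdh1 had 29, 1 and 8 reads in WT and 9, 12 and 35 in Rest_het. Cdh3 had 4, 0 and 2 reads in WT and 2, 2 and 14 in Rest_het. WT replicate 1 and Rest_het replicate 3 were thus the highest of their groups for both genes.

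**Figure D4:**
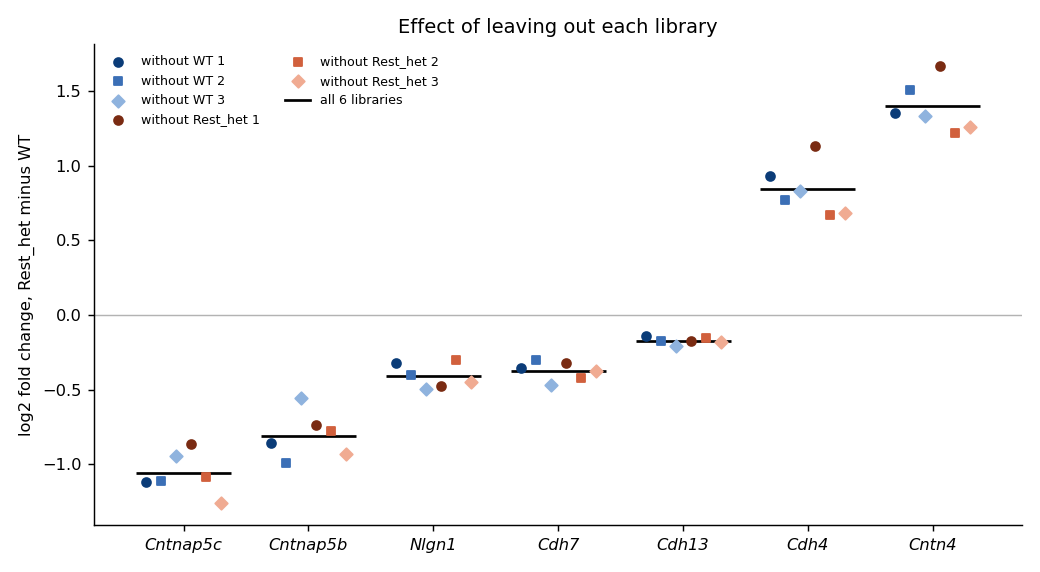
Log2 fold change (Rest_het minus WT) of the 7 members with an unadjusted edgeR p under 0.05, with all 6 libraries (line) and without each library in turn (points). The sign of these 7 did not turn, and Cdh4 ran from 0.67 to 1.13.

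Type II cadherins mark neuron groups and cortical areas. Of 9 tested, 7 lay below 0, and Cdh7 alone reached an unadjusted p under 0.05. Cdh7 (chromosome 1 from 109982431 to 110140157, plus strand) measured 11.8, 12.6 and 9.94 CPM in WT and 8.11, 9.42 and 8.87 CPM in Rest_het. The groups did not overlap. Its log2 fold change was -0.38 with SE 0.14 (edgeR adjusted p 0.40). The area marker Cdh8 measured 36.5, 33.8 and 30.7 CPM in WT and 30.8, 29.3 and 32.9 CPM in Rest_het. Cdh11, also of mesenchyme, measured 44.0, 35.0 and 35.4 CPM in WT and 36.8, 30.7 and 39.9 CPM in Rest_het.

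A group of 5 type II genes, Cdh6, Cdh9, Cdh10, Cdh12 and Cdh18, lies on chromosome 15 between 13028701 and 23474418. Their log2 fold changes ran from -0.40 to 0.08 with a median of -0.06, and 0 of the 5 had an unadjusted p under 0.05. Cdh6, a marker of cortical areas, measured 8.70, 8.81 and 5.77 CPM in WT and 5.62, 5.87 and 6.53 CPM in Rest_het, so WT replicate 3 overlapped with the mutants. Cdh10 measured 14.9 to 17.5 CPM in WT and 16.2 to 19.2 CPM in Rest_het. Cdh12 measured 5.56 to 6.45 CPM in WT and 4.49 to 7.81 CPM in Rest_het. Cdh18 stayed between 0.875 and 1.62 CPM in all libraries, and Cdh20 on chromosome 1 between 1.21 and 1.88 CPM.

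The atypical cadherin Cdh13 has no cytoplasmic tail and is held by a lipid anchor. It measured 168, 161 and 153 CPM in WT and 143, 140 and 145 CPM in Rest_het, and the groups did not overlap. The log2 fold change was small, -0.17 with SE 0.07 (edgeR adjusted p 0.43). Without single libraries the unadjusted p of Cdh13 reached 0.12, and that of Cdh7 0.099. Cdh17, of intestinal epithelium, had 21, 3 and 4 reads in WT and 18, 11 and 13 in Rest_het, and WT replicate 1 was the highest library. Its log2 fold change of 0.70 (SE 0.65) was 2.02 without that library, with an edgeR adjusted p of 0.48.

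The 9 members left out by the filter were Cntnap1, Cntnap5a, Cdh3, Cdh16, Cdh19, Cdh22, Cdh23, Cdh24 and Cdh26. Cdh23, whose protein forms the tip links of inner-ear hair cells, had 8, 3 and 8 reads in WT and 13, 15 and 9 reads in Rest_het. These groups did not overlap. Without the filter its log2 fold change was 1.05, with an unadjusted edgeR p of 0.073. Cdh22 had 18 reads in Rest_het replicate 2 and 0 to 3 in the others. Cdh19, of Schwann cell precursors, had 5 reads in WT replicate 1, 3 in Rest_het replicate 3 and 0 elsewhere. Cdh24 had 0 to 4 and Cdh26 0 to 4 reads. Cdh16, the kidney cadherin, had 0 reads in all 6 libraries, which allows 0.143 to 0.166 CPM at 3 reads a library. These floors cover counting error only.

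Several members were high in the libraries where markers of other tissue were high. The choroid plexus and cortical hem list, of which 7 of 10 genes were tested, summed to 59.5, 4.01 and 6.44 CPM in WT and 182, 9.31 and 378 CPM in Rest_het. Ttr alone measured 53.0, 2.27 and 3.09 CPM in WT and 169, 5.49 and 357 CPM in Rest_het, so the high sums rest mostly on this gene. Of the 7, 6 had log2 fold changes above 0 and 0 were called by edgeR. Wnt2b was below 0 (-0.41, SE 0.41), and Wnt3a, with 0 to 2 reads a library, was not tested. Otx2 and Folr1 were higher at an unadjusted edgeR p under 0.05, or 28.6% against 6.98% of all genes. Only Otx2 (1.85, SE 0.47) did not overlap, or 14.3% against 10.4% of all genes in that direction. The meninges list, 10 of 10 tested, summed to 508, 195 and 272 CPM in WT and 364, 194 and 545 CPM in Rest_het. Both lists were highest in WT replicate 1 and Rest_het replicate 3 within their groups, the libraries where Cdh1, Cdh3 and Cdh11 were highest within their groups. Across groups the order differed. Rest_het replicate 1 had a higher choroid plexus sum than WT replicate 1, with fewer reads of Cdh1 (9 against 29) and Cdh3 (2 against 4) and less Cdh11 (36.8 against 44.0 CPM). The list of ventral telencephalon and interneurons, 9 of 10 tested, summed to 238, 177 and 246 CPM in WT and 214, 355 and 198 CPM in Rest_het. Its highest library, Rest_het replicate 2, was also the highest for Cntnap2, Cntn6 and Cdh22. The thalamus and hypothalamus list, 7 of 10 tested, summed to 148 to 267 CPM in WT and 152 to 260 CPM in Rest_het, most of it from Tcf7l2. Its rarer genes Lhx9, Barhl2, Prox1 and Calb2 were higher in Rest_het at an unadjusted edgeR p under 0.05, or 57.1% of the 7 against 6.98% of all genes. None of the 4 overlapped between groups, where 10.4% of all genes lay higher in Rest_het without overlap. Another 2 of the 7 had log2 fold changes below 0, the lowest at -0.94. None was called by edgeR, while Barhl2 had a DESeq2 adjusted p of 0.028. Barhl2 measured 2.15, 1.11 and 1.65 CPM in WT and 2.70, 10.9 and 4.09 CPM in Rest_het, with its peak in Rest_het replicate 2. The endothelium and pericyte list, 10 of 10 tested, summed to 235 to 373 CPM in WT and 1576, 1262 and 349 CPM in Rest_het, mostly from Rgs5. Rgs5 alone measured 216, 152 and 181 CPM in WT and 1432, 1161 and 196 CPM in Rest_het. It was the 1 gene of the list at an unadjusted edgeR p under 0.05, or 10% against 6.98% of all genes higher in Rest_het. Of the 10, 4 had log2 fold changes below 0, the median was 0.04, and 0 were without overlap. No gene of these lists was at 0 in every library. Rest_het replicates 2 and 3, the 2 libraries high for Cdh4, were also the 2 highest for Barhl2, while Lhx9 and Prox1 were highest in Rest_het replicates 1 and 2. The ventral list was high in Rest_het replicate 2, and the choroid plexus list in Rest_het replicates 1 and 3. The part of other tissue in these values was not tested.

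**Figure D5:**
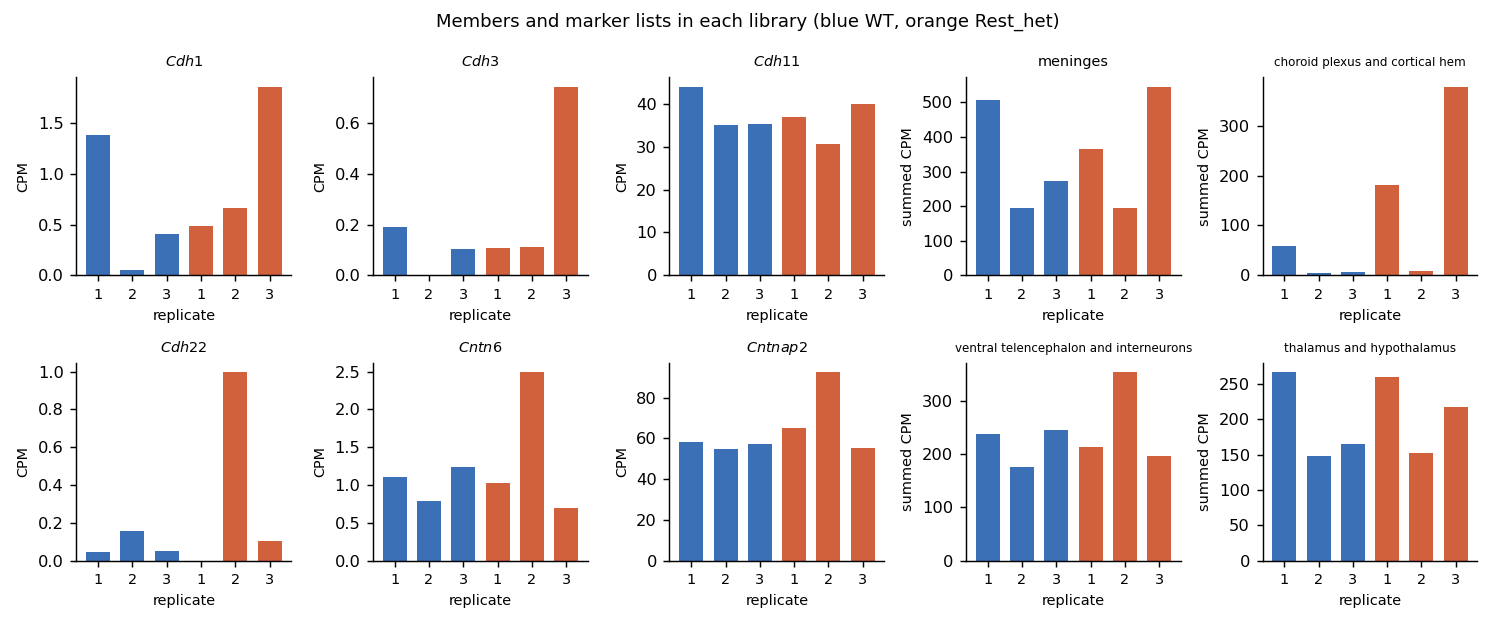
CPM of 6 members and summed CPM of 4 marker lists in each library, with WT in blue and Rest_het in orange and replicates 1 to 3 from left to right in each group. Cdh1 and Cdh11 and both lists in the upper row are high in WT replicate 1 and Rest_het replicate 3 within their groups, and Cdh22, Cntn6, Cntnap2 and the ventral list peak in Rest_het replicate 2.

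The 19 genes called over all genes lie on chromosomes 1, 5 and 8, and 14 of the 42 members lie on chromosomes 1 and 8. Within the span of called genes on chromosome 1, from 68115195 to 127679548, lie Cntnap5b, Cdh20, Cdh7, Cdh19 and Cntnap5a. Within the span on chromosome 8, from 84856989 to 102865798, lie Cdh8 and Cdh11. Of these 7, 5 were tested, and 2 of the 5, Cntnap5b and Cdh7, had an unadjusted p under 0.05, with values below 0. Over all tested genes the share at such a p was 11.7%. The called pseudogene Tdpx-ps1 (99790429 to 99791025, minus strand) lies inside Cntnap5b on the other strand and shares none of its exon bases. WT libraries held 14.8 ± 1.63 CPM of it and Rest_het libraries 4.68 ± 0.541 CPM (SD, n = 3), or -1.66 on the log2 scale (edgeR adjusted p 0.0078). Cdh11 lies 79203 bases from the called pseudogene Gm8730, which rose by 3.40 on the log2 scale in Rest_het (edgeR adjusted p 6.6e-05), while Cdh11 measured -0.09 with SE 0.13. Pseudogene counts are uncertain, since near-identical genes can share their reads. Over the 10 tested members on chromosomes 1 and 8, 3 had an unadjusted p under 0.05, or 30.0% beside 11.7% of all tested genes. The third of these, Cdh13, lies outside the span on chromosome 8, 15.4 Mb from the nearest called gene. The median log2 fold change of the 10 was -0.05. Of the 23 elsewhere, 4 had an unadjusted p under 0.05, or 17.4%, and their median was 0.02. Whether the chromosomal surroundings bear on Cntnap5b and Cdh7 was not tested.

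The base composition of the promoters was set beside the levels as a description. In the 250 bases before a start, the 36 member promoters held a median of 7 CG pairs, against 6 over all promoters, and both medians of GC content were 52.4%. Cdh22 held the most, 30 CG pairs, at a level of 0.0613 RPKM, Cntn5 held 26 and 24 at its 2 starts at 0.640 RPKM, and Cdh24 held 22 at 0.0267 RPKM. Nlgn1, at 35.1 RPKM, held 9 and 5 at its 2 starts, and Lrrtm4, at 31.9 RPKM, held 3 and 8. Other members went the opposite way. Cdh26 at 0.0239 RPKM and Cntn3 at 0.235 RPKM held 0 CG pairs, while Cdh8 at 4.18 RPKM held 20 and Nlgn2 at 4.59 RPKM held 18. The promoter of Cdh22 and the first of Lrrtm4 are shown as 2 examples far apart in composition and level, and not as a rule, with CG pairs in capitals.
Cdh22, chr2:165234738-165234987, minus strand: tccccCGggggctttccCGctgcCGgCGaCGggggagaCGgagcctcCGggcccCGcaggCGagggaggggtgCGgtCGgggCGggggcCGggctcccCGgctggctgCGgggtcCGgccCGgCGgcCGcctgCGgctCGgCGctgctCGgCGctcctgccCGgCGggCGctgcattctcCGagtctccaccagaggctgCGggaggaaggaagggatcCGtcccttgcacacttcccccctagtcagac
Lrrtm4, chr6:80018627-80018876, plus strand: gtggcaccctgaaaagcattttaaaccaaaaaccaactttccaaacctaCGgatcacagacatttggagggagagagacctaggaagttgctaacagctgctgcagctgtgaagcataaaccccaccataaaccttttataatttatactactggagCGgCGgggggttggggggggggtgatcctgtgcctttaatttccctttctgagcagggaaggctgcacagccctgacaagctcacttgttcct

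The binding partners of these families gave no edgeR calls either. Of 86 genes in 5 lists, 83 were tested and 0 were called by edgeR, while DESeq2 called 1, Nfasc. At an unadjusted p under 0.05 there were 18, or 21.7%, of which 11 were higher and 7 lower in Rest_het, beside 11.7% of all genes. The median log2 fold change was -0.01. Contactin and Caspr partners held 5 of 16. Among these, Nfasc, the neurofascin of axon initial segments and nodes, measured 45.6, 41.1 and 39.3 CPM in WT and 30.3, 28.6 and 32.9 CPM in Rest_het, without overlap. Its log2 fold change was -0.46 with SE 0.10 (edgeR adjusted p 0.32), and the DESeq2 adjusted p was 0.041. Tnr, the matrix protein tenascin-R that binds contactins, had a log2 fold change of -0.99 (SE 0.25), and Adam23, a receptor of Lgi proteins, 0.51 (SE 0.12).

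Of the neurexins and other axon-terminal receptors, 3 of 13 reached an unadjusted p under 0.05. Adgrl2, a latrophilin, stood at 1477 ± 147 CPM in WT against 1139 ± 121 CPM in Rest_het (SD, n = 3). The neurexin-binding cerebellins Cbln2 and Cbln4 had log2 fold changes of 0.74 (SE 0.25) and 1.43 (SE 0.60). Cbln4 had 7, 21 and 11 reads in WT and 15, 58 and 26 in Rest_het, with overlapping groups. Without single libraries its log2 fold change ran from 0.72 to 1.99. Catenins and other cytoplasmic partners held 2 of 12, Jup, plakoglobin, at 0.46 (SE 0.14) and Arvcf, a catenin of the p120 family, at 0.59 (SE 0.20). Other synaptic adhesion genes held 7 of 27, of which 4 were higher and 3 lower in Rest_het, and the median log2 fold change of the list was -0.04. The 3 with the smallest p were all higher: Cadm4 at 0.48 (SE 0.12), Lrfn3 at 0.89 (SE 0.27) and Clstn3, a calsyntenin, at 0.39 (SE 0.13). The groups of Lrfn3 overlapped. Scaffolds held 1 of 15, Lin7a, at 0.45 (SE 0.14).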

How the data were processed

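Whole-number read counts per gene were deposited by the authors for each library, and the submitters' processing notes name STAR 2.5.2a and the build GRCm38.p4. Libraries were oligo dT primed, amplified for 12 PCR cycles, tagmented and read as pairs of 126 bases, per the labels' protocols. It carries no strand mark and no molecular identifiers. The unstranded column was used. Rows that name no gene held 21.4 to 26.9% (no annotated gene), 6.29 to 7.48% (several places), 2.54 to 2.85% (ambiguous) and 1.21 to 1.45% (unmapped) of read pairs. The deposited table of normalized signal equals these counts divided by 1 DESeq2 size factor per library (relative tolerance 1e-06), lists 38 members and was not tested.

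Symbols matched 48349 of 48709 IDs, and positions and exon lengths came from GENCODE M21 (GRCm38). The quasi-likelihood test of edgeR 4.0.16, in R 4.3.3, was run on the counts with TMM scaling, genotype as the single term and filterByExpr at a count of 10 and total of 15. The p-values were adjusted by Benjamini-Hochberg over 15385 genes. SE is the log2 fold change over the root of F, and fold intervals are 95% normal intervals. With 3 against 3, the smallest two-sided exact permutation p is 0.1. In simulated counts of this comparison (15129 genes tested, 50 changed per fold size), calls reached 12% of the genes changed 1.5-fold, 48% for 2-fold, 86% for 3-fold and 96% for 4-fold changes. Of 127 calls there, 6 were false. The data gave 19 calls, so a smaller unadjusted p was needed for a call in the data than in the simulation. The simulated rates may therefore be too high for the data. The genes changed in the simulation were drawn from those above a minimum mean CPM, which Cntn4, Cdh1, Cdh15 and Cdh17 did not reach, so its rates do not cover these members. Alternatives were DESeq2 1.42.0, limma-voom (limma 3.58.1), DESeq2 size factors, 2 other filters, the replicate number as a block, and each library left out. The members, lists and rules were chosen with earlier results of these data known. Every member is named. Of the partner lists, up to 3 genes a list with the smallest unadjusted p under 0.05 are named. The pseudogenes, alpha-catenin hosts and antisense genes were named for their position, and the marker genes for their role or after their values were seen.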

Additional observations from a re-analysis of the deposited data

Results flagged for a closer look

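Reads of introduced sequences lay outside the gene counts. LacZ had 121 reads over the 3 WT libraries (27, 51 and 43) and 0 in each Rest_het library. CRE-ERT2 had 43 reads over the 3 Rest_het libraries (10, 16 and 17) and 0 in each WT library. They drew attention because each exceeded the limit that a count of 0 allows, 3 reads a library, in a single group. Their part in the members' values was not tested.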

How the results depend on the processing

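The count of genes called over the whole table, 19, was 126 by DESeq2, 107 with no filter, 6 with the replicate number as a block and 12 to 35 without single libraries. Members called were 0 under each alternative except without Rest_het replicate 1, where Cdh4 was called (0 to 1 without single libraries). Members at an unadjusted p under 0.05, 7 in all, were 5 to 7 under the other tools, scaling and filters, 6 with the replicate block, 4 to 7 without single libraries (4 without Rest_het replicate 1) and 4 outside chromosomes 1, 5 and 8, an alternative chosen after the data were seen. The median log2 fold change of the tested members lay between -0.07 and 0.03 throughout and changed sign without effect on a call. Same-numbered libraries did not deviate together (correlations of 0.01, 0.04 and -0.14). Pairs with different numbers ranged from -0.17 to 0.17, so this check cannot tell whether some libraries shared a litter or a preparation. Without single libraries, log2 fold changes changed sign in 11 members: Cdh2 (-0.043 to 0.056), Cntn2 (-0.10 to 0.088), Lrrtm1 (-0.10 to 0.32), Cdh11 (-0.17 to 0.026), Cntnap4 (-0.016 to 0.21), Cdh12 (-0.26 to 0.15), Cntn5 (-0.14 to 0.63), Cntnap3 (-0.47 to 0.26), Cdh18 (-0.25 to 0.19), Cntn6 (-0.28 to 0.75) and Cdh1 (-0.12 to 2.07). The cause of these changes was not tested beyond the smaller number of libraries. Counts limit the rare members: 9 of 42 were too low to test.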
